A study of Mus musculus with 4 samples.

Results

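The genes described here are the homeobox transcription factors of 15 families outside the Hox clusters, together with the Pax genes, in mouse mammary tumour cells given GSK126 or its vehicle. They were chosen by symbol alone, as every gene of the Pax, Irx, Lhx, Dlx, Msx, Otx, Emx, Gbx, Alx, Barx, Evx, Pitx, Meis, En and Nkx families and of the sine oculis family (Six2 to Six6) with a probe set annotated to that gene only. This gave 67 genes in 16 families, out of 22180 named genes on the arrays, each read at its probe set with the highest mean. GSK126-treated cells (n = 2 arrays) received 2 µM of the compound for 96 h, and DMSO-treated cells (n = 2 arrays) received the vehicle over the same time. All 4 samples were cultured cells derived from tumours of female FVB mice carrying the MMTV-NIC transgene, in which the mouse mammary tumour virus promoter drives activated ErbB2 and Cre recombinase from 1 transcript. They shared a medium with serum, epidermal growth factor, hydrocortisone, insulin and pituitary extract. The labels give no mouse age and do not say whether the arrays of a group came from separate cultures or separate lines, and every p-value below therefore reflects array-to-array scatter that could be technical.

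Homeobox genes encode transcription factors that bind DNA through a homeodomain, and Pax proteins bind through a paired domain, in some members with a homeodomain beside it. They set regional and cell identity in the embryo, and in cell types that do not use them their genes are classical targets of Polycomb repressive complex 2. The EZH2 subunit of that complex places the repressive mark H3K27me3 and is the enzyme that GSK126 inhibits. The complex is typically found at promoters rich in CpG dinucleotides.

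Promoter sequence was available for 48 of the 67 genes, as windows of 300 bases that run from 250 before to 50 after an annotated start (RefSeq, GRCm38.p6). A gene with several windows was read at the one with the most CpGs. The median window held 20 CpGs, compared with 15 over the 16990 named genes with a window. The ratio of observed to expected CpGs was above 0.6 in 37 of the 48 genes (77.1%), against 50.9% of all named genes. The motif TAATTA, a core recognised by many homeodomains and identical on both strands, was present in 3 windows (6.25%), against 4.43% of all genes. The windows below belong to genes whose GSK126 and DMSO arrays did not overlap, 1 of them higher and 3 lower with GSK126, and are shown with CpG dinucleotides in capitals. They lie at chr2:116064570-116064869 on the minus strand for Meis2 (13 CpGs), chr7:19094294-19094593 on the plus strand for Six5 (17 CpGs), chr12:56695221-56695520 on the plus strand for Pax9 (11 CpGs) and chr13:72628570-72628869 on the plus strand for Irx2 (25 CpGs).
Meis2: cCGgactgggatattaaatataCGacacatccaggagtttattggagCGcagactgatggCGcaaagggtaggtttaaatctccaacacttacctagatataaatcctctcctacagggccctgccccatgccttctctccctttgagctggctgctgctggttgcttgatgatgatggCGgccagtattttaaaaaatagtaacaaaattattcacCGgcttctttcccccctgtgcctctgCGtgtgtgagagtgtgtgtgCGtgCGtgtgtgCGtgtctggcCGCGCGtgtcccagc
Six5: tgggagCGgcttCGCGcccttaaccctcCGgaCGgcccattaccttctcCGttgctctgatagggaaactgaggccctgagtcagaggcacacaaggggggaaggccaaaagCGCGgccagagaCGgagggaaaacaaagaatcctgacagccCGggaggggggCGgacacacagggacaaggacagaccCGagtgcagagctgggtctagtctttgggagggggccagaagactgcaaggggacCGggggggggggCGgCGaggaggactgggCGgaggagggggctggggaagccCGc
Pax9: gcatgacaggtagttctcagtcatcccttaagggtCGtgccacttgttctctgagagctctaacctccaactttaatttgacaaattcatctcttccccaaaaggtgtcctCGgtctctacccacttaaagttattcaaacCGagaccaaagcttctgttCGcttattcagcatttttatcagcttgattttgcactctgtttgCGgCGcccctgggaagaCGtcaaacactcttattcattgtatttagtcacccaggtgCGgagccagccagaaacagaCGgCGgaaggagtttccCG
Irx2: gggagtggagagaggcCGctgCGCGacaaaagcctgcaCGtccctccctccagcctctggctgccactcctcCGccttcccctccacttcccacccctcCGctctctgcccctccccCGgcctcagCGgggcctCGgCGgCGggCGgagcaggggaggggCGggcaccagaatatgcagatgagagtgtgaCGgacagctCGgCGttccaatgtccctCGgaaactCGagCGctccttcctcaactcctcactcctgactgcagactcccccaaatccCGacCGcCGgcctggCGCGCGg

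The genes were sorted into 3 bands by their mean log2 value over the 4 arrays, with limits at the 40th and 60th percentiles of all named genes (4.77 and 6.11). The median CpG count was 16 in the 9 upper-band genes with a window, 22 in the 21 middle-band genes and 17.5 in the 18 genes below the 40th percentile, called near background here. Meis2 and Six5, which had the largest differences in opposite directions among the genes with a window, held 13 and 17 CpGs. In the window of Six5 the ratio of observed to expected CpGs was 0.559, and in that of Meis2 it was 0.666.

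**Figure D1:**
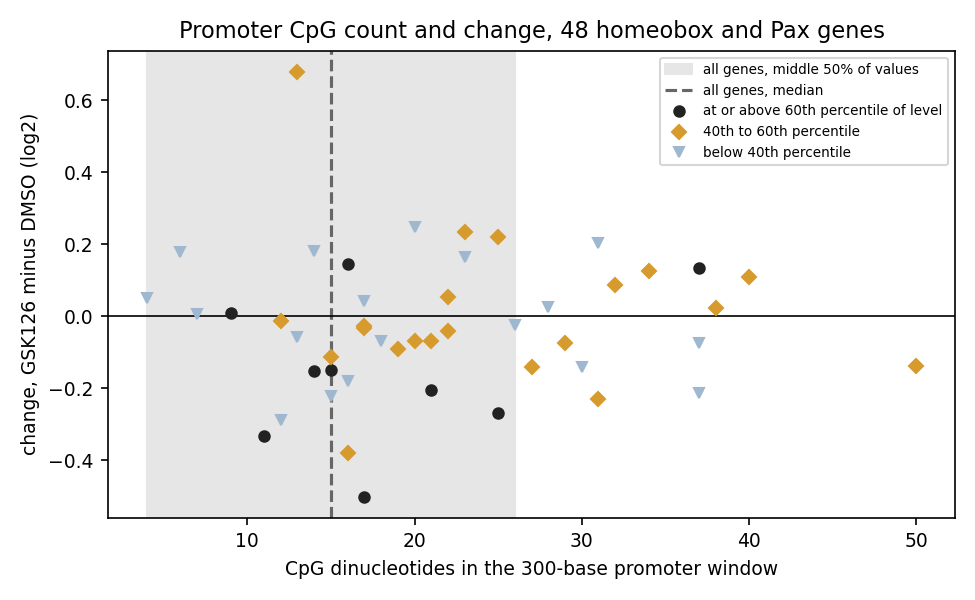
The number of CpG dinucleotides in the 300-base promoter window (x axis) is plotted against the change in log2 units, GSK126 minus DMSO (y axis), for the 48 genes with a window, with symbols for the level band. The shaded range and dashed line give the interquartile range and the median (15) of all named genes. Meis2 stands alone at the top, with 13 CpGs and a change of 0.68.

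The arrays resembled each other closely. Over all named genes they correlated at 0.990 to 0.994. Of 9 epithelial markers 8 lay at or above the 40th percentile of level, Epcam, Cdh1, Krt8 and Krt18 among them with mean log2 values of 10.56 to 11.67, and Krt19 lay below it at 4.71. Of 6 immune markers 4 lay below that percentile, the leukocyte gene Ptprc among them at 3.52, and Cd14, a lipopolysaccharide co-receptor, was bright at 10.62. Ezh2 was at 9.37 and 9.29 with GSK126, against 9.47 and 9.58 with DMSO (change -0.19, SE 0.09, limma adjusted p = 0.499), and since the compound blocks the enzyme, its messenger RNA does not check the labels. Its homologue Ezh1 (0.11), the partner subunits Eed (-0.14) and Suz12 (-0.08) and the gene Erbb2 (-0.15) had limma adjusted p-values of 0.563 to 0.846. Whether the Erbb2 probe set reads the transgene transcript was not tested. A change below is the GSK126 mean less the DMSO mean in log2 units, and adjusted p-values come from limma with Benjamini-Hochberg adjustment over all 22180 genes.

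No homeobox or Pax gene of the 67 passed the adjusted threshold of 0.05 in limma, against 0.433% of all genes. With an unadjusted p under 0.05, 6 were lower in GSK126 arrays (Dlx3, Barx2, Irx2, Otx1, Six5 and Pax9) and 1 was higher (Meis2). The shares of all genes were 5.93% lower and 4.64% higher. Both GSK126 values lay below both DMSO values for 17 of the 67, against 21.8% of all genes, and above them for 8, against 18.2%. The median change was -0.04 over the 67 genes and -0.01 over all genes, with 41 of 67 lower in mean with GSK126 (61.2%), against 52.0% of all genes. After quantile normalization 48 of 67 were lower (71.6%). In the values as deposited, leaving out 1 array moved the count of 41 to 54 without GSK126 replicate 1 and 29 without GSK126 replicate 2.

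**Figure D2:**
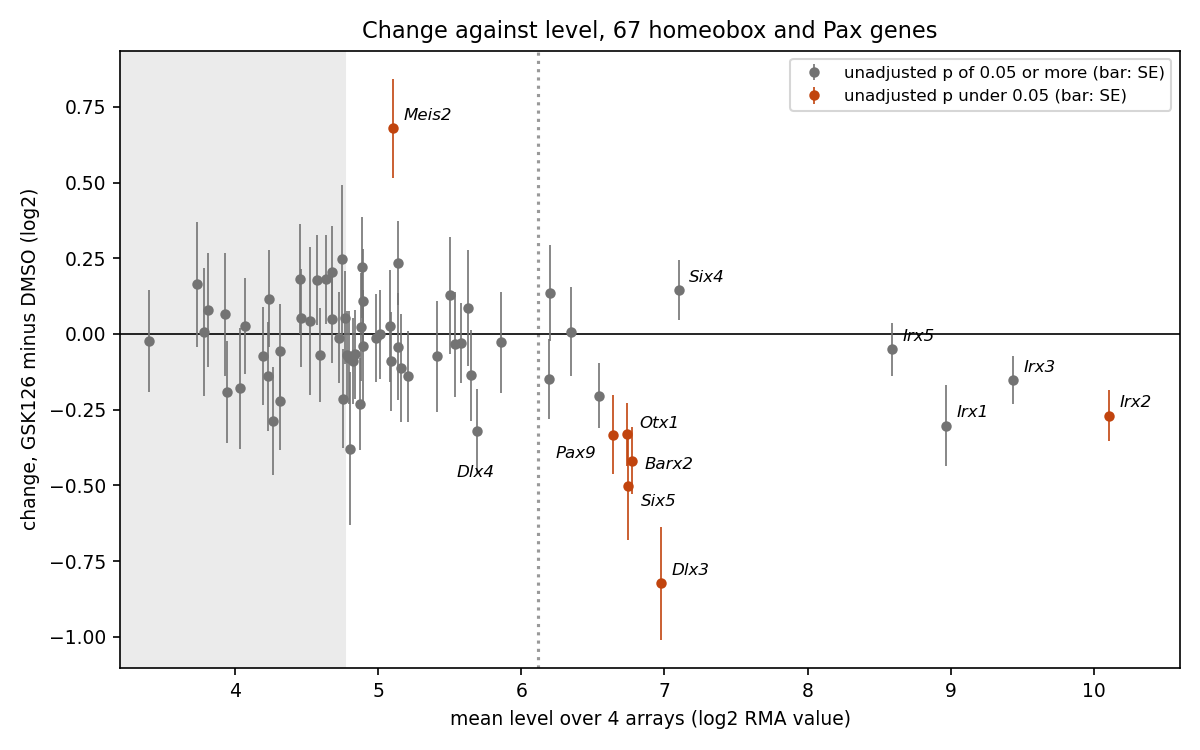
Each point is 1 of the 67 genes, with its mean log2 level over 4 arrays on the x axis and its change (log2 units, GSK126 minus DMSO, bars for the SE) on the y axis. Shading marks levels under 4.77 and the dotted line marks 6.11. The 6 genes lower at an unadjusted p under 0.05 lie right of the line, and Meis2 (0.68) lies left of it.

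The signal of different probe sets depends on their sequence, so the bands order probe sets by brightness and do not rank transcripts by amount. At or above the 40th percentile there were 42 genes, of which 0 passed the adjusted threshold, against 0.706% of all genes at that level. Of the 42, 30 were lower in mean against 58.8% of all genes there, 13 were lower with no overlap, against 28.4%, and 3 were higher with no overlap, against 16.6%. Lower with an unadjusted p under 0.05 were 6 genes, against a share of 9.05% of all genes there, and 1 was higher, against 5.21%. The limit is set on the mean over 4 arrays, and 6 of the 42 genes reached it through 1 group. Evx2, Irx4, Nkx1-2 and Pax4 had GSK126 means below it, and Meis2 and Msx3 had DMSO means below it, so these counts are a description. Of the 36 genes with both group means at or above the limit, 26 were lower in mean, and 11 were lower and 2 higher with no overlap. At an unadjusted p under 0.05, 6 of the 36 were lower and 0 higher. The shares of all genes chosen by both group means were not computed, so these counts have no background to be read against. Below the limit, 3 genes (Emx1, Lhx1 and Six6) had 1 group mean above it.

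Of the 14 upper-band genes, 11 were lower in mean with GSK126, against 65.3% of all genes of that band, and the median change was -0.24, against -0.06. Without GSK126 replicate 2, 11 of 14 were lower, and without GSK126 replicate 1, 13 of 14. Leaving the Irx family out, 7 of 10 were lower, with a median of -0.27. Both GSK126 values lay below both DMSO values for 9 of the 14, against 34.4% of all upper-band genes, and above them for 1, against 14.7%. The 6 genes lower at an unadjusted p under 0.05 stood in this band, where the share of all genes was 11.8%, while 0 were higher, against 5.22%. That count of 6 was 2 without GSK126 replicate 2, 3 without DMSO replicate 1 and 3 without the intensity trend. The share of upper-band genes past the adjusted threshold was 0.958%, against which 0 of the 14 passed. The limit at the 60th percentile was chosen after the values were seen, and these counts carry no test of the group.

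Below the 40th percentile there were 25 genes, and 14 of them were higher and 11 lower in mean, against 41.7% lower over all genes of that band, and the median change was 0.03, against 0.04. None passed the adjusted threshold in limma, which 0.0225% of all near-background genes did. None of the 25 had an unadjusted p under 0.05 in limma, where the shares of all near-background genes were 3.79% higher and 1.26% lower. The groups did not overlap for 5 of them in the upward direction, against 20.6% of all near-background genes, and for 4 in the downward direction, against 12.0%. The largest differences were 0.25 for Six6 and -0.29 for Nkx2-1. The median turned to -0.09 without GSK126 replicate 1, where 17 of 25 were lower, to -0.02 with each array centred on its median and to -0.03 after quantile normalization. With the limit at the 30th, 50th or 60th percentile or at the olfactory receptor level given next, the median of the genes below it lay between -0.04 and -0.01. The 28 middle-band genes had a median of -0.04, which became 0.03 without GSK126 replicate 2 and 0.04 without DMSO replicate 1. As a second yardstick, 35 of the 67 genes reached the 95th percentile of 1088 olfactory receptor genes, a class expressed mainly in the olfactory epithelium, at a log2 value of 4.87.

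The 2 GSK126 arrays differed from each other across these genes. In 56 of 67 genes the value was lower in replicate 2 than in replicate 1 (83.6%), with a median difference of -0.14, against 56.7% and -0.03 over all genes. The gap covered 23 of the 25 near-background genes, with a median difference of -0.18, against 53.9% and -0.03 over all near-background genes. It covered all 13 Nkx genes, and the olfactory receptor genes went the other way, with a median difference of 0.15. Between the DMSO arrays replicate 2 was lower in 41 of 67 genes, with a median difference of -0.03. For near-background genes this spread between treated arrays was wider than the median difference between the groups, and its part in the results was not tested.

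**Figure D3:**
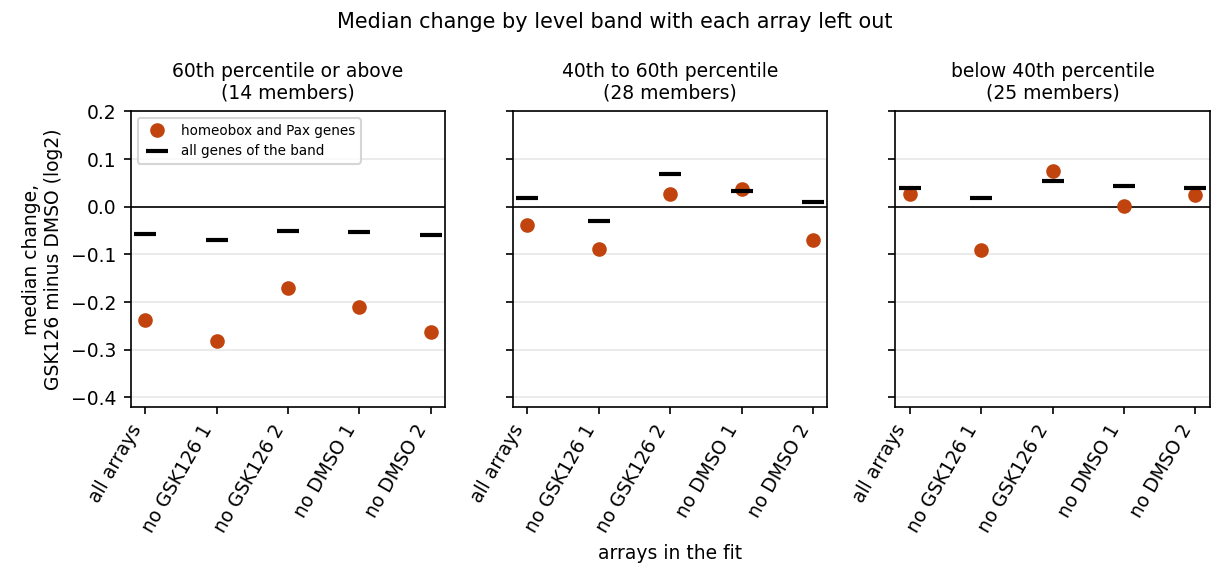
The median change in log2 units, GSK126 minus DMSO (y axis), is given for the 67 genes (circles) and for all genes (bars) in 3 level bands, in the fit of all 4 arrays and with each array left out (x axis). The upper-band circles stay between -0.28 and -0.17, and those of the other bands cross 0.

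The Iroquois genes (Irx) encode homeodomain factors of the TALE class and lie in a pair of clusters, Irx1, Irx2 and Irx4 in one and Irx3, Irx5 and Irx6 in the other. All 6 had lower means with GSK126 in the deposited values and under each scaling and leave-out alternative. A lower mean was found for 52.0% of all genes and 65.3% of upper-band genes. Irx2 had log2 values of 10.03 and 9.91 with GSK126, against 10.27 and 10.21 with DMSO. Its arrays did not overlap, and the difference was small, at -0.27 (SE 0.08, limma adjusted p = 0.336). The rest of the family was given in full after its values were seen. Irx1 was at 8.84 and 8.79 with GSK126, against 9.32 and 8.91 with DMSO (change -0.30, adjusted p = 0.484 in limma), and without DMSO replicate 1 the treated arrays stood close to the remaining control. Irx3 was at 9.36 and 9.37, against 9.52 and 9.51 (change -0.15), with tight arrays in both groups. Its second probe set was much dimmer, at 5.44 and 5.13 with GSK126, against 5.45 and 5.25 with DMSO, and these values overlapped. Irx5, at 8.59 and 8.53 with GSK126, against 8.66 and 8.57 with DMSO, was the 1 member of the 6 whose groups overlapped (change -0.05). The other 5 were lower with no overlap, against 21.8% of all genes and 34.4% of upper-band genes. For those 5, leaving out an array could not turn the direction. The changes of the dimmer Irx4 and Irx6 were -0.23 and -0.09. The cluster of Irx1, Irx2 and Irx4 ran from -0.30 to -0.23 and that of Irx3, Irx5 and Irx6 from -0.15 to -0.05. Without GSK126 replicate 1 and without DMSO replicate 1 these ranges overlapped, and in the last case Irx1 was at -0.095 and Irx3 at -0.15. The difference between clusters was not tested.

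**Figure D4:**
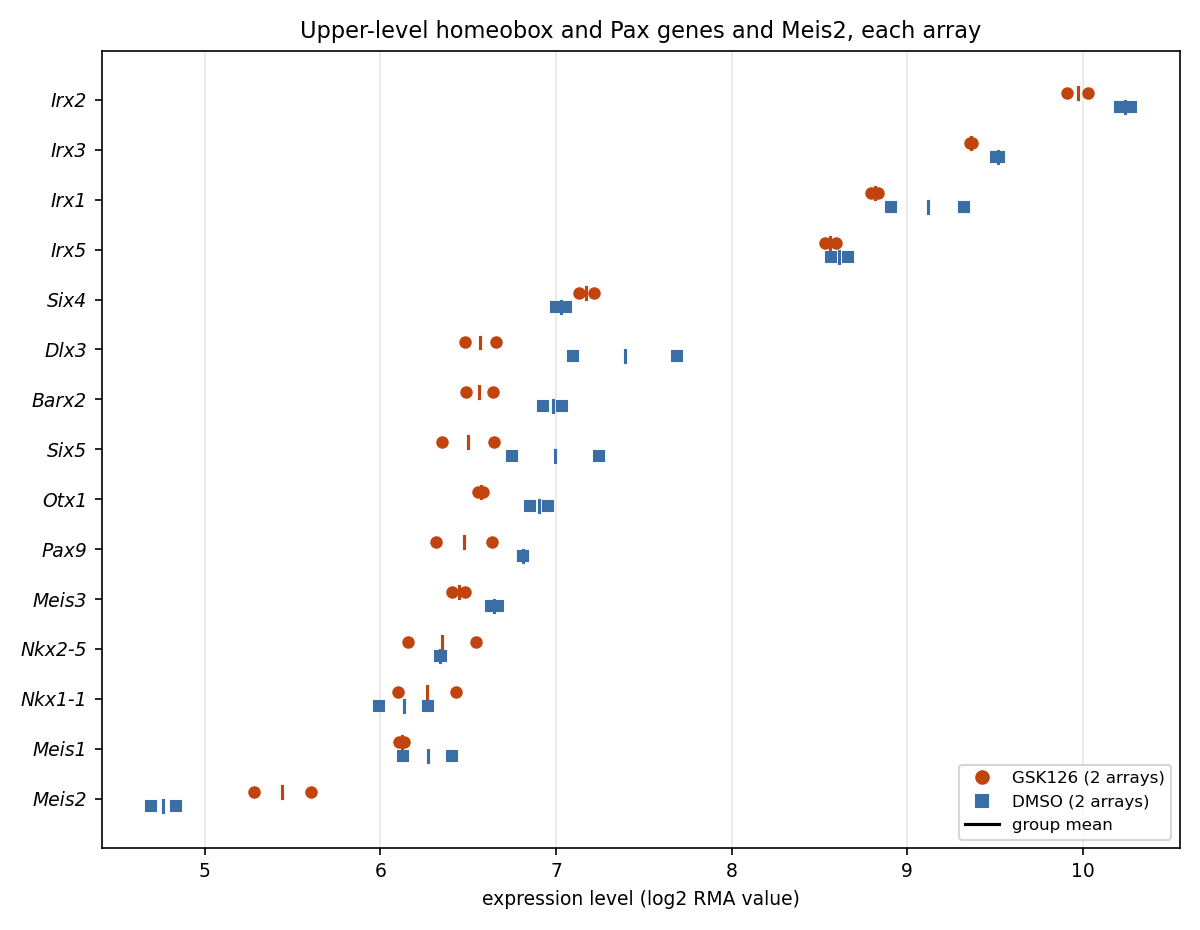
Log2 values of each array (x axis) are drawn for the 14 upper-band genes and Meis2 (y axis), with GSK126 as circles above DMSO as squares and a tick at each group mean. Meis2 and Six4 have both circles right of both squares, and 9 genes, Dlx3 and Barx2 among them, have both circles left of both squares.

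Dlx3, a distal-less factor needed for placenta and for skin and hair differentiation, had the largest difference of the 67 genes. Its log2 values were 6.66 and 6.48 with GSK126, against 7.69 and 7.10 with DMSO. The treated arrays lay below both controls, and the controls had an SD of 0.42 (change -0.82, SE 0.19, 1.77-fold lower, limma adjusted p = 0.182). Leaving out 1 array moved the change between -1.12 and -0.53. Its neighbour Dlx4 was at 5.43 and 5.64 with GSK126, against 5.92 and 5.79 with DMSO, a change of -0.32 (adjusted p = 0.473 in limma). The other neighbouring pair, Dlx5 and Dlx6, which act in the skeleton and forebrain, was near background at changes of 0.07 and 0.12, and Dlx2 was at -0.07. The family median of -0.07 was 0.13 with GSK126 replicate 2 left out, and 0.08 with DMSO replicate 2 left out.

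Barx2, a factor linked to cell adhesion and muscle differentiation, was at 6.49 and 6.64 with GSK126, against 7.04 and 6.93 with DMSO. The groups were well apart (change -0.42, SE 0.11, 1.34-fold lower, limma adjusted p = 0.261). Barx1, which patterns stomach and teeth, was at -0.14 with overlapping arrays. The Msx genes are targets of BMP signalling, and Msx2 takes part in mammary bud growth. Msx2 was at 5.14 and 5.10 with GSK126, against 5.38 and 4.94 with DMSO, so the treated values lay between the controls (change -0.04, limma adjusted p = 0.970). Msx3 was at 0.05.

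Of the orthodenticle genes, Otx1, a forebrain factor, had values of 6.59 and 6.56 with GSK126, against 6.95 and 6.85 with DMSO. The treated arrays lay below both controls (change -0.33, SE 0.10, 1.26-fold lower, limma adjusted p = 0.338). Otx2 was near background at -0.18. In the related paired-like families the brighter genes had overlapping arrays. Pitx1, a hindlimb and pituitary factor, was at 5.32 and 4.87, against 4.98 and 5.16 (change 0.03, which turned to -0.017 with centred arrays and after quantile normalization). Alx4, a limb and craniofacial factor, was at 5.08 and 4.94 with GSK126, against 5.07 and 4.95 with DMSO (change -0.001). Pitx3 stood at -0.07 and Alx1 at 0.18.

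Among the 9 Pax genes, 7 had lower and 2 higher means with GSK126, and the family median was -0.06, which turned to 0.03 without GSK126 replicate 2. Pax9, required for thymus, teeth and palate, was at 6.64 and 6.32 with GSK126, against 6.81 in each of the DMSO arrays. Both treated values were lower, and they differed more from each other than the controls did (change -0.33, SE 0.13, 1.26-fold lower, limma adjusted p = 0.437). Without GSK126 replicate 2 the change was -0.17, and without GSK126 replicate 1 it was -0.49. Pax5, the factor that maintains B cell identity, went the other way at 5.21 and 5.31, against 5.03 and 5.01 (change 0.24, SE 0.14, adjusted p = 0.603 in limma). The remaining members, Pax1, Pax2, Pax3, Pax4, Pax6, Pax7 and Pax8, lay between -0.14 and 0.01, and each had overlapping arrays.

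The sine oculis family is represented here by Six2 to Six6. Several of its genes act with Eya coactivators and Dach factors downstream of Pax in eye, muscle and kidney development. Six5 was at 6.65 and 6.35 with GSK126, against 7.25 and 6.75 with DMSO. The groups did not overlap, but the nearest values of each were close (change -0.50, SE 0.18, 1.41-fold lower, limma adjusted p = 0.399). Its change was -0.25 without DMSO replicate 1 and -0.75 without DMSO replicate 2. Six4, a muscle regulator, was at 7.22 and 7.13 with GSK126, against 7.06 and 7.00 with DMSO, higher in both arrays by a small step (change 0.14, SE 0.10, adjusted p = 0.665 in limma). Six2, Six3 and Six6 were near background, between -0.07 and 0.25. Of the partner list of 6 Eya and Dach genes, 0 passed the adjusted threshold in limma, against 0.433% of all genes. At an unadjusted p under 0.05, 1 was lower and 0 higher, where the shares of all genes were 5.93% and 4.64%. The lower gene was Eya2, a phosphatase and coactivator that binds sine oculis proteins, at 8.07 and 8.30 with GSK126, against 8.89 and 8.62 with DMSO (change -0.56, SE 0.12, limma adjusted p = 0.169). The other 5 were higher in mean, 3 of the 6 were near background, and the list had a median change of 0.10.

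Meis2 was the 1 gene of the 67 that was higher at an unadjusted p under 0.05. Meis proteins are TALE homeodomain cofactors that bind DNA together with Pbx and Hox proteins. Meis2 was at 5.60 and 5.28 with GSK126, against 4.69 and 4.83 with DMSO, where 1 of the values and the group mean (4.763) lay below the 40th percentile of level (4.767). Both treated arrays were above both controls (change 0.68, SE 0.16, 1.60-fold higher, limma adjusted p = 0.210). Leaving out 1 array moved the change between 0.52 and 0.84. Its relatives stood on the other side, Meis3 at 6.48 and 6.41 with GSK126, against 6.67 and 6.63 with DMSO (change -0.20, adjusted p = 0.555 in limma), and Meis1 at -0.15 with overlapping arrays. Of 7 measured TALE partners, 0 passed the adjusted threshold in limma, against 0.433% of all genes. At an unadjusted p under 0.05, Pbx3, a DNA-binding partner of Meis and Hox proteins, was higher (0.33) and Pknox2, a Meis relative, was lower (-0.43). The shares of all genes at that p were 4.64% higher and 5.93% lower.

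The LIM homeobox genes gave no gene at an unadjusted p under 0.05 in limma. Lhx6, which specifies cortical interneurons, was at 6.06 and 5.63 with GSK126, against 5.95 and 5.79 with DMSO, and Lhx2, a regulator of forebrain and hair follicle, was at 5.77 and 5.37, against 5.65 and 5.23. In both genes the arrays overlapped, at changes of -0.03 and 0.13. Lhx1, Lhx3, Lhx4, Lhx5, Lhx8 and Lhx9 ran from -0.19 to 0.20. The family median of 0.04 turned to -0.004 with centred arrays and to -0.01 after quantile normalization. Among 9 LIM cofactors, 0 passed the adjusted threshold in limma, against 0.433% of all genes. At an unadjusted p under 0.05, 1 was lower and 1 higher, where the shares of all genes were 5.93% and 4.64%. Lmo4, a LIM-only protein of mammary epithelium, was lower at an unadjusted p under 0.05 (9.09 and 9.07 with GSK126, against 9.28 and 9.45 with DMSO, change -0.29), and Ssbp2, which stabilises LIM complexes, was higher (7.17 and 7.40, against 6.92 and 6.85, change 0.40).

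The 13 Nkx genes, which include regulators of heart, thyroid and ventral neural tube, split into 6 lower and 7 higher. Nkx2-5, the cardiac factor, was at 6.54 and 6.16 with GSK126, against 6.34 in each of the DMSO arrays, which placed the controls between the treated values (change 0.01, which turned to -0.035 with centred arrays). Nkx1-1 was at 6.43 and 6.10, against 5.99 and 6.27 (change 0.13), and Nkx3-2, a factor of the axial skeleton, was at 5.15 and 4.85, against 4.87 and 4.69 (change 0.22, or 0.072 without GSK126 replicate 1 and 0.37 without GSK126 replicate 2). Both overlapped between groups. Nkx1-2, Nkx2-1 and Nkx2-3, had lower GSK126 values in both arrays, at -0.07, -0.29 and -0.22, and the last 2 were near background. The family median was 0.01, with -0.17 when GSK126 replicate 1 was left out and 0.20 when replicate 2 of that group was.

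The smaller families added no gene at an unadjusted p under 0.05 in limma. Gbx2, which positions the boundary of midbrain and hindbrain, was at 5.21 and 5.07 with GSK126, against 5.17 and 5.39 with DMSO (change -0.14, or -0.25 without DMSO replicate 1 and -0.029 without DMSO replicate 2), and its dimmer probe set gave a difference of -0.19. Evx1, beside the HoxA cluster, was at 5.03 and 4.93, against 5.06 and 4.92 (change -0.01). Evx2, beside HoxD, was at 4.99 and 4.24 with GSK126, against 4.84 and 5.15 with DMSO (change -0.38, SE 0.25), and its change was -0.01 without GSK126 replicate 2 and -0.75 without GSK126 replicate 1. En1, En2, Emx1, Emx2 and Gbx1 ran from -0.21 to 0.16.

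**Figure D5:**
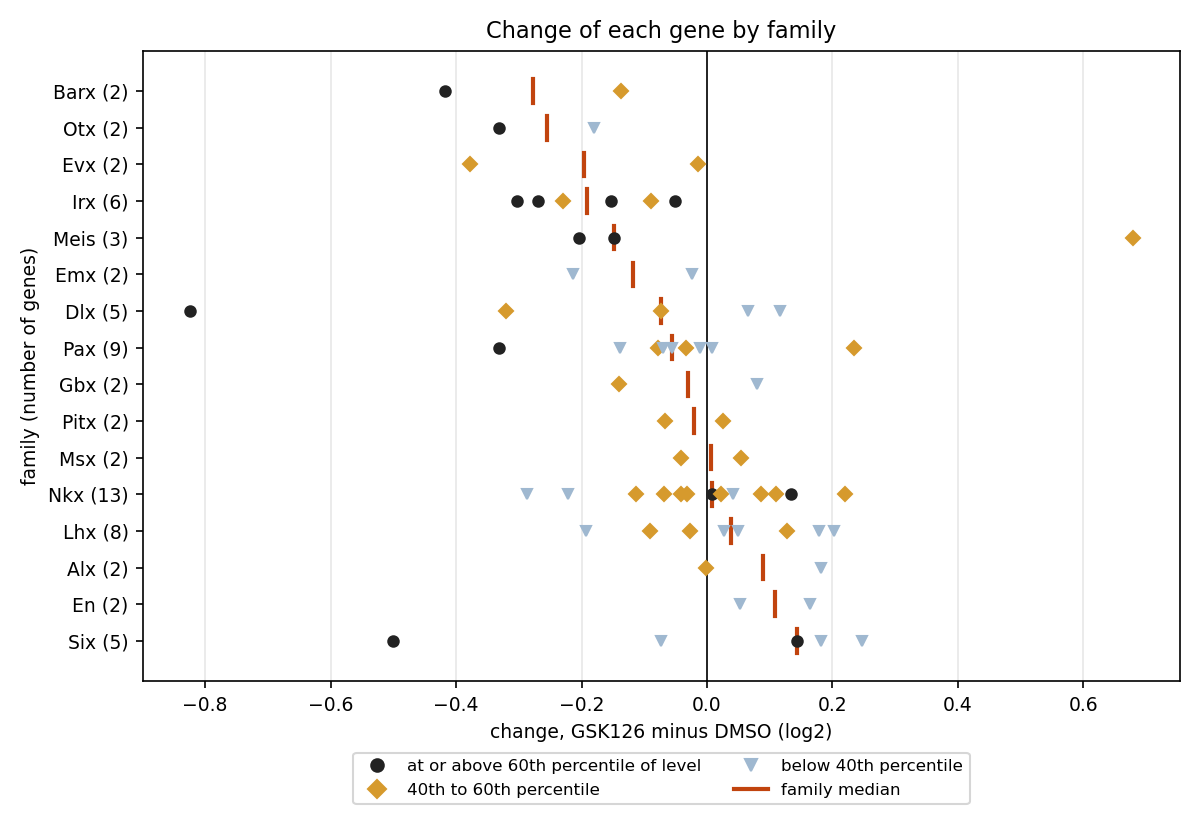
Changes in log2 units, GSK126 minus DMSO (x axis), are shown for every gene in its family (y axis, with the number of genes), with symbols for the level band and a bar at the family median. The Irx family lies wholly left of 0, and Dlx3 (-0.82) and Meis2 (0.68) stand apart from the rest of their families.

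Some of the genes formed 9 groups of neighbours in the RefSeq table, with starts within 1 Mb of the next listed gene. The other genes, Meis2, Barx2, Otx1 and Six5 among them, had no such neighbour. The groups are described by direction only, with no share for other neighbouring genes at hand. Dlx3 and Dlx4 were both lower, as were Nkx2-1, Nkx2-9 and Pax9 (-0.33 to -0.11) and both Irx clusters. Six4 and Six6 were both higher, as were Dlx5 and Dlx6, and Nkx6-2 and Msx3. The members of 2 groups, Six2 with Six3 and Nkx2-2 with Nkx2-4 and Pax1, were mixed. The groups with 1 direction of mean change numbered 7 over all arrays and 5 to 8 with 1 array left out, with 5 without DMSO replicate 1. No group had a member past the adjusted threshold in limma.

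Among markers of the basal epithelial layer, 1 passed the test. Of 6 measured basal markers, the oxytocin receptor gene Oxtr was lower and passed the threshold (6.35 and 6.24 with GSK126, against 7.12 and 6.97 with DMSO, change -0.75, limma adjusted p = 0.0479). That p lay close to the threshold, which 0 of all genes passed without the intensity trend or in a fit of all probe sets. Krt14 was lower at an unadjusted p under 0.05 (-0.51). Of all genes, 0.433% passed the adjusted threshold in limma, and 5.93% were lower and 4.64% higher at an unadjusted p under 0.05. These shares are the background for the basal list and for every list below. For the 6 basal markers together, 3 were lower and 3 higher in mean. The summed linear signal of the list was 279 and 260 with GSK126, against 333 and 340 with DMSO. Without Oxtr it was 198 and 185, against 194 and 215, and the groups overlapped. The 9 epithelial markers summed to 13787 and 14109, against 13178 and 13685. Of the fibroblast, endothelial, immune, adipocyte and neural lists, 0 genes passed the adjusted threshold in limma, and their median changes ran from -0.08 to 0.09. At an unadjusted p under 0.05, the fibroblast markers Pdgfra (0.45) and Thy1 (0.35) and the adipocyte marker Fabp4 (0.62) were higher. Of the neural markers Snap25 (0.41) and Map2 (0.25) were higher and Tubb3 (-0.39) lower at that p. Of the epithelial markers Cldn4 (0.39) was higher and Cldn7 (-0.22) lower at that p. Pdgfra, Fabp4, Snap25 and Tubb3 were near background, where the size of a change is uncertain. In mean, 2 fibroblast markers were lower and 6 higher, 3 adipocyte markers lower and 2 higher, and 4 neural markers lower and 3 higher. Fewer cells of a type and less RNA per cell cannot be told apart in these bulk samples, and the part of any of these cell types in the homeobox differences was not tested. Of 11 subunits and partners of Polycomb repressive complex 2, 0 passed the adjusted threshold in limma, and Rbbp4, a histone-binding subunit, was lower at an unadjusted p under 0.05 (-0.28).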

How the data were processed

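Total RNA of 2 GSK126 and 2 DMSO samples was hybridised to 1-colour Affymetrix mouse arrays. The deposited values are log2 expression, produced by the authors with RMA at core-exon level in the Expression Console program, per the labels. Affymetrix Power Tools is named, with no version, per the submitters' processing notes. A genome build was not given in the sources used here. Groups and replicate numbers came from the sample titles.

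Of 41345 probe sets, 23521 carried 1 symbol, 1814 several and 16010 none, and probe sets with several symbols named no gene. The 67 genes came from 70 probe sets, and all 67 matched RefSeq by Entrez identifier. A further 6 RefSeq symbols that match the same pattern were not analysed here. Transcripts with shared probe sequence cannot be separated.

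The fit used limma 3.58.1 in R 4.3.3 on all 22180 genes (lmFit, eBayes with an intensity trend, two-sided, 2 residual and 5.57 prior degrees of freedom), adjusted by Benjamini-Hochberg at 0.05. It was tested on simulated data. The number of arrays limits the precision. Genes, lists and level limits were chosen with earlier results of these data known. Values by array are given for genes with a p under 0.05, the brightest gene of each family at or above the 40th percentile, and the 6 largest increases and decreases there. Alternatives were other priors, a level filter, averaged probe sets, all probe sets, centring, quantile normalization, the replicate block, leaving out each array and other level limits. The counts by group mean, the basal sum without Oxtr and the repeats for neighbours and Irx clusters were chosen after seeing the data.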

Additional observations from a re-analysis of the deposited data

How the results depend on the processing

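In limma 0 of the 67 genes passed the adjusted threshold in the fit of all arrays and in each alternative run, and the lowest adjusted p of any was 0.084, that of Dlx3 with centred arrays. The count lower at an unadjusted p under 0.05, 6 in the main setting, was 3 without the intensity trend and 3 to 8 with 1 array left out, and the count higher, 1, was 1 to 3 with 1 array left out. The count lower was 3 without GSK126 replicate 2 and 3 without DMSO replicate 1. With 1 array left out, the lone sample of its group is assumed to vary like the other group. The median change of the 67 genes ran from -0.13 to 0.018 with 1 array left out, and that of near-background genes from -0.090 to 0.075. The median of genes at or above the level limit, -0.07 at the 40th percentile, was -0.24 at the 60th, a limit added after the data were seen. At the 40th percentile it was -0.14 with GSK126 replicate 1 left out and -0.003 with GSK126 replicate 2 left out. The cause was not tested.

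With the replicate number as a block, 7 genes were lower and 1 higher at an unadjusted p under 0.05 and 0 passed the adjusted threshold in limma. Over all genes the deviations of same-numbered arrays correlated at -0.03. That value shows no gene-by-gene pattern shared by same-numbered arrays. A correlation cannot see a shift common to all genes, and it cannot tell whether the arrays were paired. All genes called fell to 10 with the block, against 96 without it. All genes called were 0 in limma without the intensity trend, where 1964 had an unadjusted p under 0.05, and 0 in a fit of all probe sets, where 1567 of the 22180 genes had one. They were 149 without genes below the 40th percentile, and 0 to 4 with 1 array left out.

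Of the 21 genes named by the rule, 13 kept their direction in every alternative run, among them Dlx3, Barx2, Irx2, Otx1, Six5, Pax9 and Meis2, whose treated and control arrays did not overlap, so that leaving out an array could not turn them. Nkx2-5 turned to -0.035 with centred arrays, and Pitx1 to -0.017 with centred arrays and to -0.017 after quantile normalization. With 1 array left out, changes that turned ran from -0.070 to 0.068 for Alx4, -0.082 to 0.055 for Evx1, -0.079 to 0.33 for Lhx2, -0.24 to 0.19 for Lhx6, -0.26 to 0.18 for Msx2, -0.032 to 0.30 for Nkx1-1, -0.19 to 0.20 for Nkx2-5 and -0.20 to 0.25 for Pitx1. For genes near background the signal limits what can be seen, and the size of a change there is uncertain.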

Other observations

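Homeobox genes outside the families above were measured for 34 of 41 listed symbols. None passed the adjusted threshold in limma, against 0.433% of all genes. The 1 gene with an unadjusted p under 0.05 was Satb1, a chromatin organiser with a homeodomain, higher at 5.69 and 5.76 with GSK126, against 5.29 and 5.01 with DMSO (change 0.58, SE 0.15, limma adjusted p = 0.239). The list had a median change of 0.03, with 13 lower and 21 higher, and 9 of its genes were near background. The 7 genes of the upper band, Cux1, Shox2, Lmx1b, Zhx1, Zhx2, Adnp and Tshz1, lay between -0.11 and 0.14.

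Genes of the BMP, hedgehog and retinoid signals that act upstream of many homeobox genes gave 0 calls among 16 in limma, and at an unadjusted p under 0.05 there were 2 lower and 1 higher. Gli3, a hedgehog transcription factor, was at 5.83 and 5.79 with GSK126, against 5.01 and 4.75 with DMSO (change 0.93, SE 0.15, limma adjusted p = 0.0566). Both treated values lay above both controls. Id2, a BMP-induced inhibitor of helix-loop-helix factors, was lower at -0.27, and the retinoic acid receptor gene Rarg was lower at -0.34. Of 6 Groucho corepressors, which many homeodomain proteins recruit, 0 had an unadjusted p under 0.05, against the same shares of all genes. Tle3 (-0.17) and Tle1 (-0.16) had the smallest p.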
